A study of Mus musculus with 2 samples.

Results

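The class 3 semaphorins are secreted guidance proteins, and plexins are the transmembrane receptors that carry their signal into the cell. The genes described here were a list of 10 symbols: the ligands Sema3a, Sema3b, Sema3c, Sema3d, Sema3e, Sema3f and Sema3g, and the receptors Plxna2, Plxna4 and Plxnd1. All 10 were found by symbol among the 17758 genes of the single-cell table and among the 16906 genes of the bulk table. The bulk sample was RNA of PDGFRA+ cells sorted from peripheral lung of Pdgfra-H2BGFP mice, whose Pdgfra locus drives a nuclear green fluorescent protein. The single-cell sample was 1 library (10x Chromium 3′ v3) of cells sorted from the peripheral lung of wild-type mice. Both were taken at postnatal day 3, both were labelled as control lungs, and each group had 1 sample. No difference could therefore be tested, and every comparison below is a description of these 2 samples. Pooling of animals is not stated in the labels.

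A class 3 semaphorin usually binds a neuropilin, which holds the ligand but has little signalling of its own, and the neuropilin then works with a class A or class D plexin. Plexin signalling lowers integrin adhesion and collapses the actin skeleton at the leading edge, so that axons, endothelial cells and other migrating cells turn away or retract. In developing lung and vessels the family is known for patterning nerves, capillaries, lymphatics and the pulmonary veins, and Sema3e is the exception that binds Plxnd1 without a neuropilin.

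The single-cell table held 11306 cells with 62575796 UMIs in all. The values looked corrected for depth, since cell totals spanned only 1.79-fold around a median of 5537, but the labels do not state the step behind them. After filters 10182 cells were kept, of which 63.2% were immune-like, 20.2% mesenchymal-like, 9.81% endothelial-like, 6.32% epithelial-like and 0.442% mesothelial-like. Clustering gave 24 classes, named from marker genes and called "-like" for that reason, and 5 clusters that stayed unnamed and are called by number. The lineage percentages include the numbered clusters. The epithelial-like cells include 201 of cluster 17, which scored 3.82 for secretory airway and 2.47 for pan-endothelial markers. Levels are CPM, the share of a gene in all UMIs of a class times 1000000, and they carry no interval because the values are no longer raw counts. Shares are percentages of cells with a value above 0, with exact Clopper-Pearson 95% intervals that cover counting error only. For a share of 0 the limit given is 3 cells of the total; it is a limit on cells with a UMI, not on cells that express the gene. B-like cells, with a median of 1469.5 detected genes per cell, served as the background for these shares; the classes whose shares are given below had medians from 1889 to 3205.5. They had a value above 0 in 0 of 326 cells for Sema3a, Sema3c, Sema3d, Sema3e and Plxna2, which allows a share of up to 0.920%. The B-like share was between 0.307% and 1.23% for Sema3b, Sema3f, Sema3g and Plxna4, and 4.60% for Plxnd1. The bulk table held 171910584 reads.

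The labelled cells were set against their markers. In the bulk PDGFRA+ sample Pdgfra itself had 184 CPM, the 10 myofibroblast markers summed to 11947 CPM, and the 8 pan-endothelial markers summed to 110 CPM. Markers of red blood cells summed to 10743 CPM there, and their part in the bulk levels was not tested. The myofibroblast-like class of 554 cells had 5114 CPM of the same 10 myofibroblast markers. Cluster 27, of 104 mesenchymal cells led by Aspn, Scx and Cnn1, had 12907 CPM of them. It stayed unnamed because its marker score was 6.61 for smooth muscle and 5.75 for myofibroblast while its most enriched gene, Aspn, was a myofibroblast marker. The myofibroblast-like class was itself close to smooth muscle. Its larger cluster scored 5.16 for myofibroblast and 5.10 for smooth muscle, its cycling cluster scored 4.59 and 4.47, and the class had 9056 CPM of the 9 smooth muscle markers. With a stricter cell filter, with predicted doublets kept or at resolution 0.5, at most 2 of the 420 cells of the larger cluster kept the name myofibroblast-like, and with doublets kept 417 of them were called smooth muscle-like. Values of cluster 27 are given below for this reason, as are those of both clusters of the class for Plxna4. For Sema3c they were 117 CPM in the larger and 89.5 CPM in the cycling cluster.

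**Figure D1:**
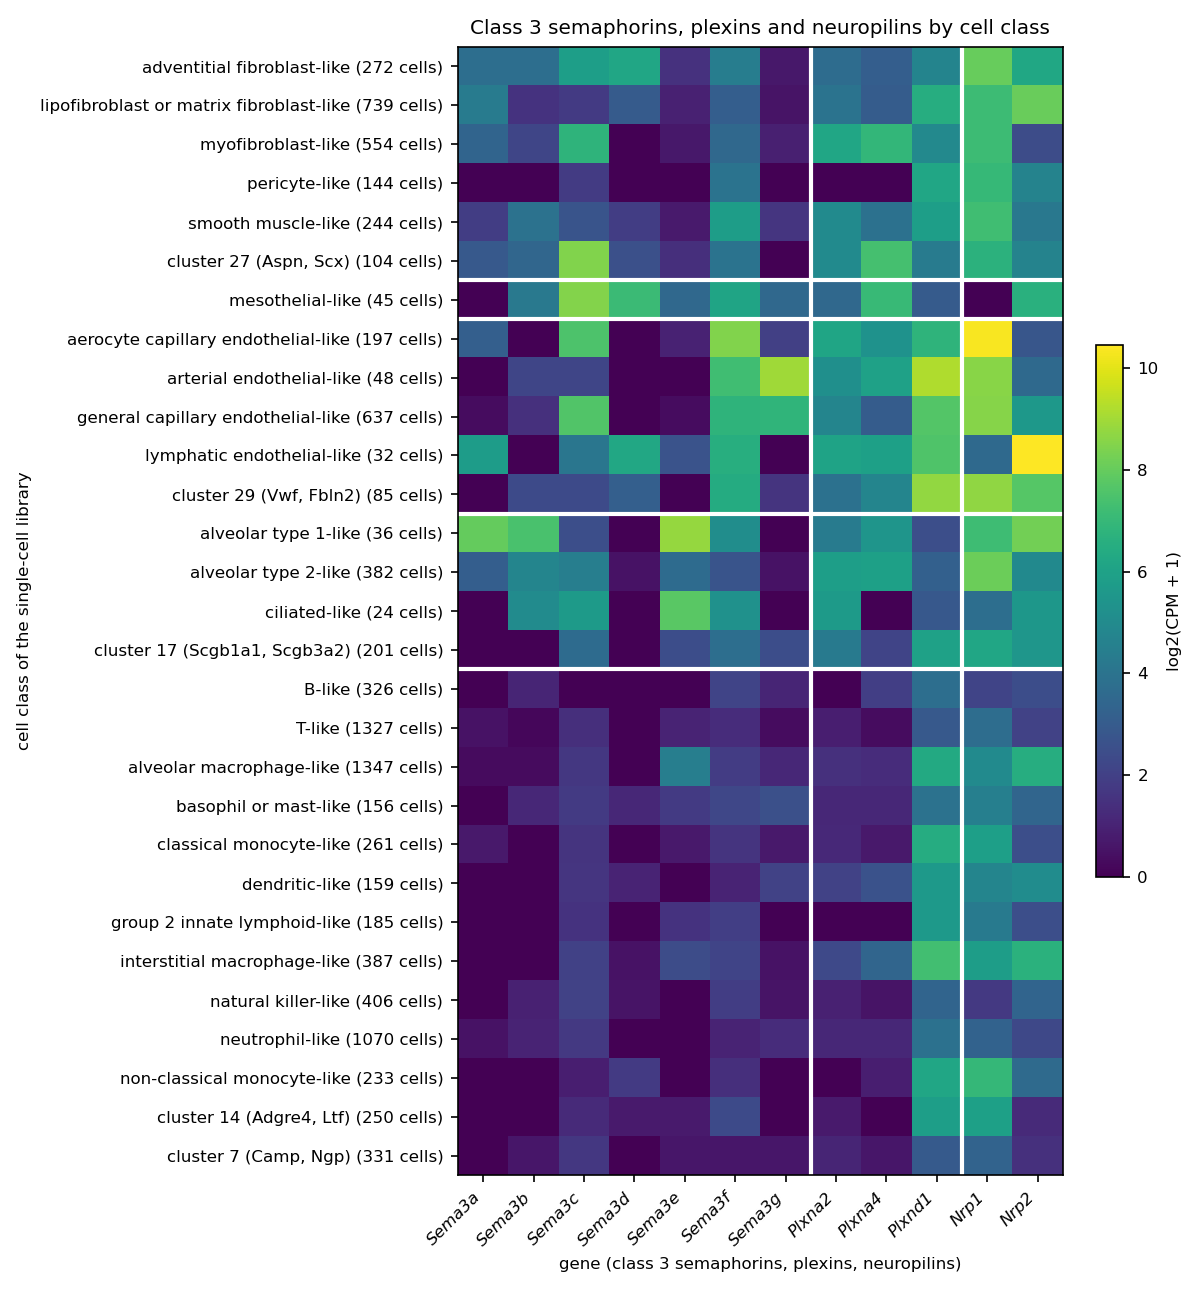
Level of each class 3 semaphorin, plexin and neuropilin (columns) in each cell class or numbered cluster of the single-cell library (rows, with the number of cells), as log2(CPM + 1) in colour. White lines part the lineages and the gene groups. The ligands peak in different rows: Sema3a, Sema3b and Sema3e in alveolar type 1-like cells, Sema3c and Sema3d in mesothelial-like cells, Sema3f in aerocyte-like cells and Sema3g in arterial-like cells, and the immune rows are dark for the ligands except Sema3e in alveolar macrophage-like cells.

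All 10 genes had at least 100 UMIs, from 198 for Sema3b to 3556 for Plxnd1. By named class, 6 of the 10 had their highest level in an epithelial-like or mesothelial-like class, as did 31.3% of the 15398 genes with at least 20 UMIs. By single class these were alveolar type 1-like cells for Sema3a, Sema3b and Sema3e (5.85% of all genes) and mesothelial-like cells for Sema3c, Sema3d and Plxna4 (6.62%). For 3 it was an endothelial-like class (20.2% of genes), for 1 a mesenchymal-like class (18.4% of genes) and for 0 an immune-like class (30.1% of genes). Arterial-like cells led for Sema3g and Plxnd1 (7.14% of all genes), aerocyte-like cells for Sema3f (4.01%) and myofibroblast-like cells for Plxna2 (5.24%). The single mesenchymal one, Plxna2, was nearly level between classes, with 70.8 CPM in myofibroblast-like cells and 70.6 CPM in aerocyte-like cells. These counts leave out the unnamed clusters. Plxna4 was higher in mesenchymal cluster 27 (165 CPM) than in mesothelial-like cells (131 CPM). For Sema3c cluster 27 was close, at 358 CPM against 364 CPM in mesothelial-like cells. Ligand levels were uneven across classes. On the tau index, which is 0 for a gene at the same level in every class and 1 for a gene in a single class, their median was 0.828, against 0.539 for the 3 plexins and 0.342 for the 12863 genes with at least 100 UMIs. The medians were not matched for abundance. Sema3a, Sema3b, Sema3d and Sema3e had 198 to 370 UMIs and were at 0 in 7 to 13 named classes. Sema3g, with 585 UMIs, had a tau of 0.869. Sema3c and Sema3f, the ligands with most UMIs, had 0.646 and 0.593, near Plxna4 at 0.613.

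Of the 7 ligand genes 4 lay on chromosome 5 and 2 on chromosome 9. On mm10 (GENCODE M21), Sema3d, Sema3a, Sema3e and Sema3c followed each other on the plus strand of chromosome 5 within 5347 kb. Sema3d (chr5:12383385-12588948) and Sema3a (chr5:13125414-13602565) had 0 protein-coding genes between them, and Sema3a and Sema3e (chr5:14025276-14256689) had 1, Speer3. Sema3c (chr5:17574281-17730268) lay 3318 kb beyond Sema3e, with 16 protein-coding genes between them. Sema3b (chr9:107597674-107609229) and Sema3f (chr9:107681500-107710475) lay 72.3 kb apart on the minus strand of chromosome 9, with 3 protein-coding genes between them, and Sema3g (chr14:31217860-31230352) on the plus strand of chromosome 14. Neighbours did not have to share a highest class: Sema3a and Sema3e did, whereas Sema3b and Sema3f did not. Over the 24 named classes of the 1 library the Pearson correlation of log2(CPM + 1) was 0.42 between Sema3a and Sema3e, 0.30 between Sema3a and Sema3d and 0.36 between Sema3b and Sema3f.

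RefSeq promoter sequences (GRCm38.p6) were matched for 7 of the 10 genes. The 250 bases before the RefSeq start of 3 ligands are shown 5′ to 3′, because these ligands had their highest levels in 3 different lineages: Sema3c in mesothelial-like, Sema3e in alveolar type 1-like and Sema3g in arterial-like cells. The RefSeq start is not always the outermost one: the Sema3c stretch and the end of the Sema3g stretch lie inside the GENCODE spans given above. Capitals mark the GC box GGGCGG on either strand, so that CCGCCC is the same motif read on the other strand.
Sema3c, chr5:17574566-17574815, plus strand: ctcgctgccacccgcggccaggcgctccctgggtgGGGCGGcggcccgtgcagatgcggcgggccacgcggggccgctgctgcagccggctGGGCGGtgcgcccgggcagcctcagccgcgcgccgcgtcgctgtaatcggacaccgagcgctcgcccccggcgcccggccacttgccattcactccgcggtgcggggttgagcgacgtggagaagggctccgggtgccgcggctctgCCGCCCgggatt
Sema3e, chr5:14025026-14025275, plus strand: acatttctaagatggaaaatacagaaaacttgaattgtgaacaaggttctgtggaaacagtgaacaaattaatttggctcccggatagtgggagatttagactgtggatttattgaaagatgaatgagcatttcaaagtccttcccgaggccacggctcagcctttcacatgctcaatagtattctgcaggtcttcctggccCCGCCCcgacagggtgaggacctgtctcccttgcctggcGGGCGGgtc
Sema3g, chr14:31217623-31217872, plus strand: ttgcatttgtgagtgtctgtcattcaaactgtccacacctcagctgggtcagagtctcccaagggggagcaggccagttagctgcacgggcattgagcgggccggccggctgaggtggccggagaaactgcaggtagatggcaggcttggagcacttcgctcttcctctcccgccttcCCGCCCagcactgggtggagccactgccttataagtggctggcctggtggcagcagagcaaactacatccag
The Sema3c stretch was 78.4% G or C, with 39 CpG dinucleotides and 3 GC boxes. The Sema3e stretch was 48% G or C, with 7 CpG and 2 GC boxes, and the Sema3g stretch 60.4%, with 8 CpG and 1 GC box. Over 32851 RefSeq promoters the median was 52.4% G or C with 6 CpG, and 32.7% held a GC box in the same window. Neither TATAAA nor CCAAT was found on either strand of the 3 stretches, while 12.4% of all promoters held TATAAA and 33.8% held CCAAT. None of these letters says what drives a gene in these cells.

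Sema3a, which repels axons through Nrp1 and class A plexins, was highest in alveolar type 1-like cells. These flat cells of the gas exchange surface had 253 CPM, and 28 of 36 cells had a value (77.8%, 60.8% to 89.9%). Lymphatic endothelial-like cells had 54.3 CPM, lipofibroblast or matrix fibroblast-like cells 19.3 CPM, adventitial fibroblast-like cells 12.6 CPM and myofibroblast-like cells 9.45 CPM. Because fibroblasts were many and alveolar type 1-like cells few, 59.2% of Sema3a UMIs were in mesenchymal-like cells and 29.6% in epithelial-like cells. General capillary endothelial-like cells had 1 UMI in 637 cells.

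Sema3e, the direct ligand of Plxnd1 that restrains vessel growth, followed the same leading class. Alveolar type 1-like cells had 445 CPM (88.9% of cells, 73.9% to 96.9%) and ciliated-like cells 219 CPM (87.5% of 24 cells, 67.6% to 97.3%). The ciliated-like cluster scored 8.37 for ciliated and 4.51 for secretory airway, and the secretory marker Cyp2f2 was among its leading genes. Alveolar type 2-like cells, the surfactant makers, had 11.5 CPM. Sema3a and Sema3e were both seen in 72.2% of alveolar type 1-like cells (54.8% to 85.8%) and in 1.57% of alveolar type 2-like cells (0.579% to 3.39%). It was also the one ligand above 10 CPM in an immune class: alveolar macrophage-like cells had 21.4 CPM, in 10.3% of 1347 cells (8.75% to 12.1%). They held 45.9% of its UMIs, and both of their clusters had it, with 32.6 CPM in the cycling cluster and 18.3 CPM in the other. Interstitial macrophage-like cells had 4.31 CPM.

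Sema3b, a secreted protein known in human tissue as a candidate tumour suppressor, was also highest in alveolar type 1-like cells, at 172 CPM (69.4% of cells, 51.9% to 83.7%). Ciliated-like cells had 32.2 CPM and alveolar type 2-like cells 26.0 CPM (15.4% of 382 cells, 12.0% to 19.5%). Epithelial-like cells together held 51.5% of its UMIs. Smooth muscle-like and adventitial fibroblast-like cells followed at 14.6 and 12.6 CPM. The alveolar type 1-like class was small and had 860 CPM of the 8 pan-endothelial markers, against 137 CPM in alveolar type 2-like cells. It had 23553 CPM of its own 8 markers. The class also had 860 CPM of lipofibroblast or matrix fibroblast, 698 CPM of mesothelial and 569 CPM of smooth muscle markers. The part of endothelial RNA or RNA of other cell types in its values was not tested.

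Sema3c, needed for the cardiac outflow tract and known to act in pulmonary vessel patterning, was found in mesothelial, capillary and some fibroblast classes. Mesothelial-like cells, from the pleural covering, had 364 CPM (91.1% of 45 cells, 78.8% to 97.5%), and cluster 27 had 358 CPM (82.7%, 74.0% to 89.4%). General capillary-like cells had 198 CPM (44.0% of 637 cells, 40.1% to 47.9%) and aerocyte-like cells, the large gas exchange capillary cells, 183 CPM (45.2% of 197 cells, 38.1% to 52.4%). Myofibroblast-like cells had 110 CPM (49.8%, 45.6% to 54.1%) and adventitial fibroblast-like cells 56.4 CPM. Lipofibroblast or matrix fibroblast-like cells had only 2.38 CPM (1.22% of 739 cells, 0.558% to 2.30%). Of its UMIs 48.2% were in endothelial-like and 38.6% in mesenchymal-like cells. Within the endothelium it was a capillary gene, since arterial-like cells had 3.61 CPM from 1 UMI and lymphatic-like cells 16.3 CPM from 3 UMIs.

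Sema3d, known in the mouse embryo for guiding pulmonary veins, was highest in mesothelial-like cells. It had 138 CPM there (60% of cells, 44.3% to 74.3%), 76.0 CPM in lymphatic-like cells and 70.9 CPM in adventitial fibroblast-like cells (32.4% of 272 cells, 26.8% to 38.3%), which surround vessels and airways. Adventitial fibroblast-like cells held 53.6% of its UMIs. Lipofibroblast or matrix fibroblast-like cells had 6.91 CPM. In myofibroblast-like cells Sema3d was listed at 0 in all 554 cells, which allows a share of up to 0.542%.

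Sema3f, a Nrp2 ligand that limits lymphatic and blood vessel growth, was found throughout the endothelium. Aerocyte-like cells had 354 CPM (74.1%, 67.4% to 80.1%), arterial-like cells 152 CPM, general capillary-like cells 112 CPM (42.9%, 39.0% to 46.8%) and lymphatic-like cells 92.3 CPM. Endothelial-like cells held 71.7% of its UMIs. Outside it, mesothelial-like cells had 67.1 CPM and smooth muscle-like cells 55.4 CPM, while myofibroblast-like cells had 10.6 CPM.

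Sema3g, known as an endothelial semaphorin, differed between the endothelial classes. Arterial-like cells had 502 CPM (79.2% of 48 cells, 65.0% to 89.5%) and general capillary-like cells 112 CPM (38.3%, 34.5% to 42.2%). Aerocyte-like cells had 3 UMIs (2.98 CPM), and lymphatic-like cells were at 0 in 32 cells, which allows a share of up to 9.38%. Of its UMIs 91.6% were endothelial.

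**Figure D2:**
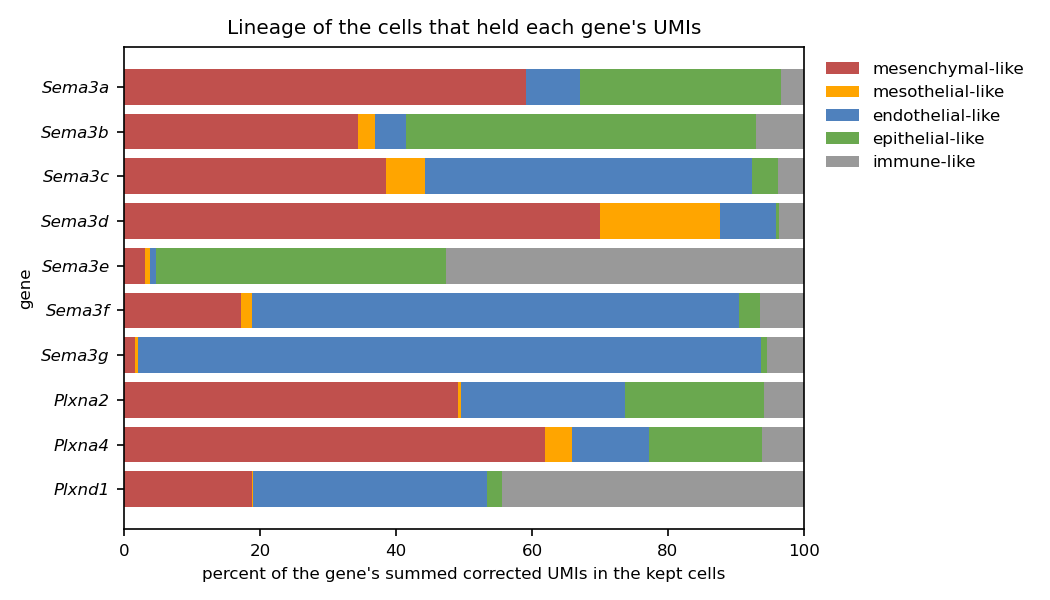
Percent of each gene's summed UMIs (horizontal axis) that lay in cells of each lineage (colours), for the 7 ligands and the 3 plexins. Sema3g (91.6%) and Sema3f (71.7%) were mostly endothelial, Sema3d 70% mesenchymal, and Sema3e was split between immune (52.7%) and epithelial cells (42.7%), with the largest immune share of the 7 ligands.

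Set side by side, the classes differed in which ligand had most UMIs. A UMI of a 3′ library counts a molecule whatever its length, so ligands can be ordered within a class. Of the 29 classes and clusters, 14 had at least 20 UMIs of their first ligand, with no ties. Sema3c was first in 4 of them, Sema3e and Sema3f in 3 each, and Sema3a, Sema3b, Sema3d and Sema3g in 1 each. In the other 15 the order rests on too few UMIs to be read. The summed level of all 7 ligands was between 4.54 and 28.0 CPM in the 13 immune classes and clusters. It was 103 to 660 CPM in the 5 endothelial ones and 33.1 to 908 CPM in the 4 epithelial ones. In the 6 mesenchymal ones it was 17.3 to 395 CPM, and in mesothelial-like cells 608 CPM. The immune range thus lay below the mesothelial, endothelial and epithelial ranges. The lowest epithelial value was that of unnamed cluster 17, and the lowest of a named epithelial class was 72.5 CPM in alveolar type 2-like cells. Capillary cells of both kinds carried 2 ligands in many cells: Sema3c and Sema3f were both seen in 36.5% of aerocyte-like cells (29.8% to 43.7%) and in 21.8% of general capillary-like cells (18.7% to 25.2%).

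Aerocyte-like cells were set against general capillary-like cells because both line alveolar capillaries; this pairing was chosen after the values were seen. At a log2 ratio of 1 or more stood 4 of the 10 genes, where 7.3% of 15398 genes did. They were Sema3a (2.80), Plxna4 (2.29), Sema3f (1.65) and Plxna2 (1.43), although Sema3a had only 8 UMIs in aerocyte-like cells and 1 in general capillary-like cells. At -1 or less stood Sema3g (-4.83), where 12.9% of all genes did. Sema3b passed that limit only through the added 1 CPM: it had 0 UMIs in aerocyte-like cells, where 3 UMIs would be 2.98 CPM, and 1.71 CPM in general capillary-like cells, so no direction is given. The median over the 10 genes was 0.32, against -0.10 over all genes. It lay between Sema3d, at 0 UMIs in both classes, and Sema3e, with 1 UMI in each. The median over the 10 genes therefore rests on too few UMIs to be read. Sema3c was nearly level at 183 CPM in aerocyte-like and 198 CPM in general capillary-like cells.

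Plxna2 is a class A plexin that takes part in neuropilin complexes and also binds class 6 semaphorins. It was found in several lineages at like levels. Myofibroblast-like cells had 70.8 CPM (32.3%, 28.4% to 36.4%), aerocyte-like cells 70.6 CPM (23.9%, 18.1% to 30.4%), lymphatic-like cells 65.2 CPM (34.4%, 18.6% to 53.2%) and alveolar type 2-like cells 56.7 CPM (31.9%, 27.3% to 36.9%). The intervals of these 4 shares overlapped, so their order is not resolved. In the other fibroblasts it was lower, at 14.8 CPM in lipofibroblast or matrix fibroblast-like cells (7.85%, 6.01% to 10.0%) and 12.0 CPM in adventitial fibroblast-like cells. In pericyte-like cells it was at 0 in 144 cells, which allows a share of up to 2.08%.

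Plxna4, the class A plexin best known for axon repulsion by Sema3a, had 61.8% of its UMIs in mesenchymal-like cells. Cluster 27 had 165 CPM (56.7%, 46.7% to 66.4%), mesothelial-like cells 131 CPM (57.8%, 42.2% to 72.3%) and myofibroblast-like cells 120 CPM (52.3%, 48.1% to 56.6%). These 3 shares overlapped. Myofibroblast-like cells alone held 44.0% of its UMIs, with 130 CPM in their larger cluster of 420 cells and 88.3 CPM in the cycling cluster of 134 cells. Alveolar type 2-like cells had 59.7 CPM (31.9%, 27.3% to 36.9%). Arterial-like cells had 61.3 CPM, lymphatic-like cells 59.8 CPM, alveolar type 1-like cells 43.0 CPM and aerocyte-like cells 38.8 CPM. The remaining mesenchymal classes were lower, with 13.9 CPM in smooth muscle-like cells. Lipofibroblast or matrix fibroblast-like cells had 7.15 CPM (3.52%, 2.31% to 5.11%) and adventitial fibroblast-like cells 7.81 CPM (4.41%, 2.30% to 7.58%), and the intervals of both shares overlapped that of B-like cells (0.920%, 0.190% to 2.67%). Pericyte-like cells were at 0, with the same limit of 2.08%. One exon overlap with an antisense gene, Plxna4os3, was found for Plxna4, and no overlap for the other 9 genes.

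Plxnd1, the plexin of endothelial cells in vessel patterning, had the highest level of the 3 plexins in most classes. It reached 599 CPM in arterial-like cells (89.6%, 77.3% to 96.5%) and 431 CPM in cluster 29, of 85 endothelial cells led by Vwf and Fbln2 (88.2%, 79.4% to 94.2%). General capillary-like cells had 200 CPM (58.4%, 54.5% to 62.3%), lymphatic-like cells 190 CPM and aerocyte-like cells 111 CPM (35.0%, 28.4% to 42.1%). It was the only one of the 3 plexins with more than 10 CPM in an immune class. Plxna4 had 9.49 CPM in interstitial macrophage-like cells. It had 25.0 CPM in their cluster of 72 cells (11 UMIs) and 22.8 CPM in their cluster of 29 cells (4 UMIs). Plxnd1 had 156 CPM in interstitial macrophage-like cells (63.3% of 387 cells, 58.3% to 68.1%). Classical monocyte-like cells had 88.5 CPM of Plxnd1 and alveolar macrophage-like cells 79.5 CPM, and immune-like cells held 44.5% of its UMIs. Myofibroblast-like cells had 28.9 CPM (16.2%, 13.3% to 19.6%), against 89.9 CPM in lipofibroblast or matrix fibroblast-like cells (37.8%, 34.2% to 41.4%). Its direct ligand Sema3e had fewer than 2 CPM in the arterial-like, aerocyte-like and general capillary-like classes.

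**Figure D3:**
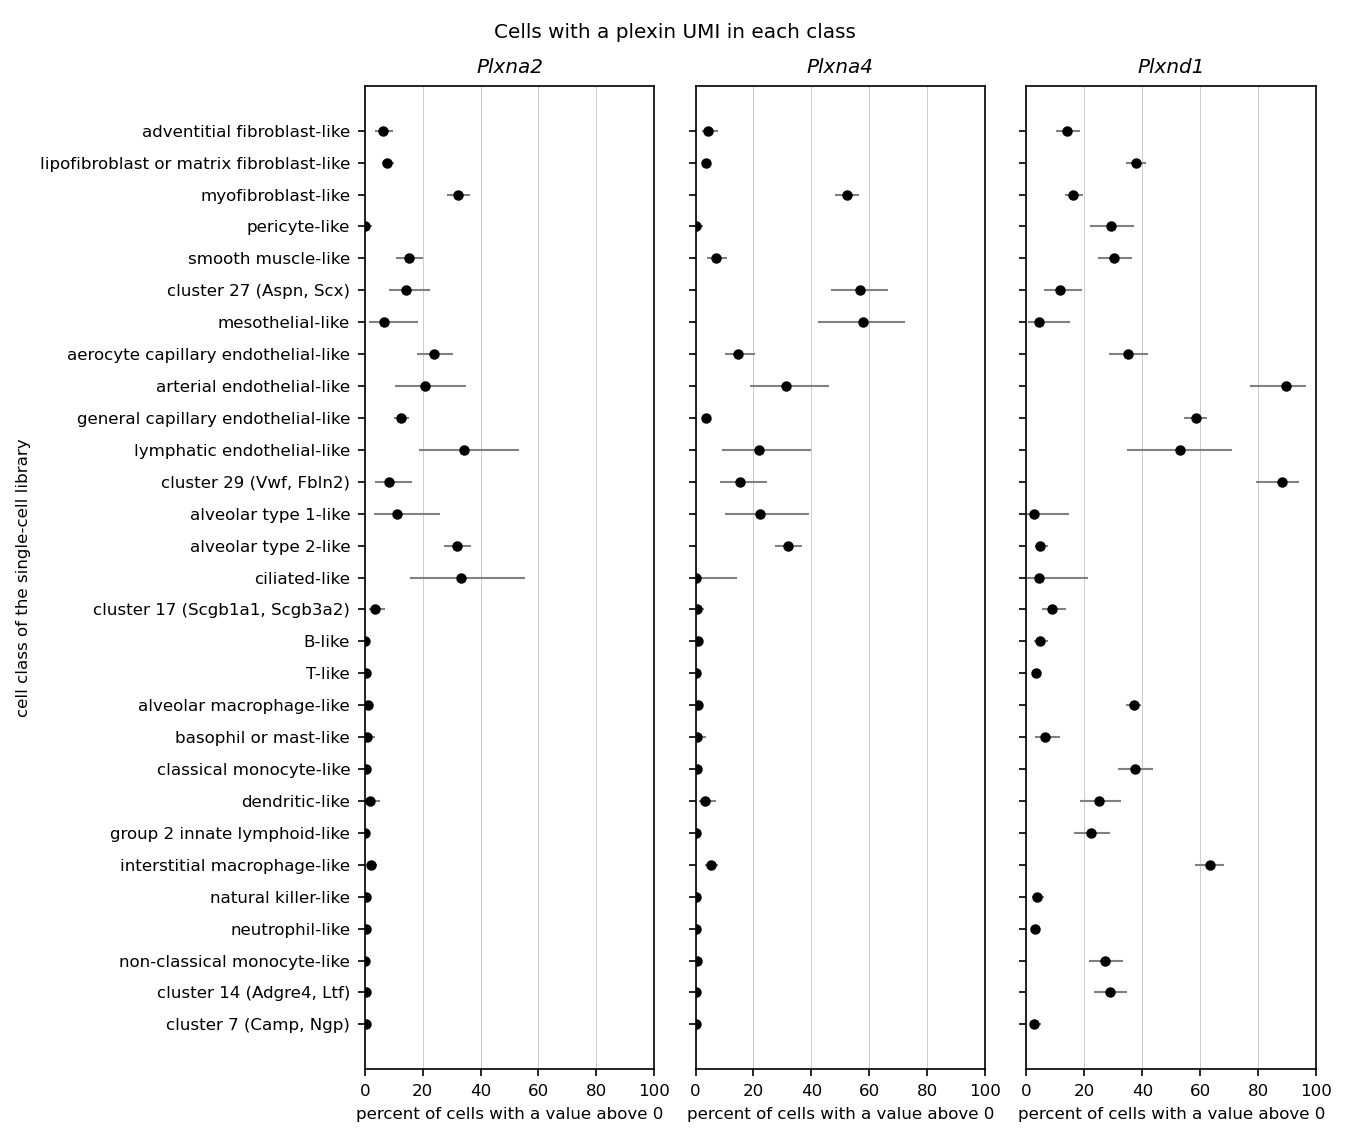
Percent of cells with a value above 0 (horizontal axis) for Plxna2, Plxna4 and Plxnd1 in each cell class or numbered cluster. Points are shares and bars exact Clopper-Pearson 95% intervals, which cover counting error only. Plxna4 stands out in myofibroblast-like cells (52.3%), cluster 27 (56.7%) and mesothelial-like cells (57.8%), and Plxnd1 in arterial-like cells (89.6%), cluster 29 (88.2%) and interstitial macrophage-like cells (63.3%).

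The plexins were found with different neuropilins. Nrp1, the co-receptor of Sema3a, had 1308 CPM in aerocyte-like cells and 141 CPM in myofibroblast-like cells, and was listed at 0 in mesothelial-like cells. Nrp2, the co-receptor of Sema3f and Sema3g, had 1401 CPM in lymphatic-like cells, 301 CPM in alveolar type 1-like cells, 267 CPM in lipofibroblast or matrix fibroblast-like cells and 4.43 CPM in myofibroblast-like cells. Mesothelial-like cells had 98.9 CPM of Nrp2 (46.7%, 31.7% to 62.1%). Nrp2 and Plxna4 were both seen in 24.4% of mesothelial-like cells (12.9% to 39.5%). In single cells, Nrp1 and Plxna4 were both seen in 30.9% of myofibroblast-like cells (27.0% to 34.9%), against 1.62% of lipofibroblast or matrix fibroblast-like cells (0.842% to 2.82%). The pair was about as frequent in arterial-like cells (29.2%, 17.0% to 44.1%), alveolar type 2-like cells (27.7%, 23.3% to 32.5%) and cluster 27 (25%, 17.0% to 34.4%), whose intervals overlapped that of myofibroblast-like cells. Nrp1 and Plxna2 were both seen in 19.0% of myofibroblast-like (15.8% to 22.5%) and 26.4% of alveolar type 2-like cells (22.1% to 31.2%). Nrp1 with Plxnd1 was seen in 80% of cluster 29 (69.9% to 87.9%), 70.8% of arterial-like (55.9% to 83.0%) and 46.8% of general capillary-like cells (42.9% to 50.7%). Nrp2 with Plxnd1 was seen in 55.3% of cluster 29 (44.1% to 66.1%), 53.1% of lymphatic-like (34.7% to 70.9%), 28.4% of interstitial macrophage-like (23.98% to 33.2%) and 28.1% of lipofibroblast or matrix fibroblast-like cells (24.9% to 31.5%), and in 0.542% of myofibroblast-like cells (0.112% to 1.57%). Some cells carried a ligand and a plexin together. Sema3c and Plxna4 were both seen in 57.8% of mesothelial-like cells (42.2% to 72.3%), 46.2% of cluster 27 (36.3% to 56.2%) and 26.7% of myofibroblast-like cells (23.1% to 30.6%). Shares of cells with both genes depend on detection, and the median number of detected genes was 2849.5 in myofibroblast-like and 2350 in lipofibroblast or matrix fibroblast-like cells.

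Myofibroblast-like cells, which lay down elastin at the tips of growing alveolar septa, were set against all other kept cells. Among the 10 genes, 4 stood at a log2 ratio of 1 or more, where 16.1% of 15398 genes did. Plxna4 had 120 CPM in myofibroblast-like cells and 9.68 CPM in the others (log2 ratio 3.50), and Plxna2 70.8 and 10.3 CPM (2.67). Sema3c had 110 CPM in myofibroblast-like cells and 27.4 CPM in the others (1.97), and Sema3a 9.45 and 3.91 CPM (1.09). At -1 or less stood Sema3g (-2.66), Sema3e (-2.32), Plxnd1 (-1.14) and Sema3d, where 18.5% of all genes did. Sema3d was at 0 in myofibroblast-like cells and at 4.14 CPM in the others. The median over the 10 genes was -0.47, also with Sema3d set to a floor of 3 UMIs, against 0.17 over all genes. Without the cycling cluster, an alternative chosen after the values were seen, Sema3a was at 0.80 and Plxnd1 at -0.98.

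Against the other fibroblasts, that is lipofibroblast or matrix fibroblast-like plus adventitial fibroblast-like cells, Plxna4 stood out further. It had 120 CPM in myofibroblast-like cells and 7.34 CPM in other fibroblast-like cells (log2 ratio 3.85). Sema3c had 110 and 17.7 CPM (2.57) and Plxna2 70.8 and 13.99 CPM (2.26). These were the 3 genes at 1 or more, where 7.61% of all genes were. At -1 or less were Plxnd1, with 28.9 and 71.5 CPM (-1.28), and Sema3d, with 0 and 25.1 CPM, where 8.14% of all genes were. The pooled classes differed. Plxnd1 had 89.9 CPM in lipofibroblast or matrix fibroblast-like cells but 25.2 CPM in adventitial fibroblast-like cells, which is not above myofibroblast-like cells. Sema3c had 2.38 CPM in the former and 56.4 CPM in the latter. The median over the 10 genes was -0.23, against 0.06 over all genes. Nrp2 was lower too, with 4.43 CPM in myofibroblast-like cells and 212 CPM in other fibroblast-like cells (-5.30), whereas Nrp1 was nearly level at 141 and 175 CPM (-0.31).

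**Figure D4:**
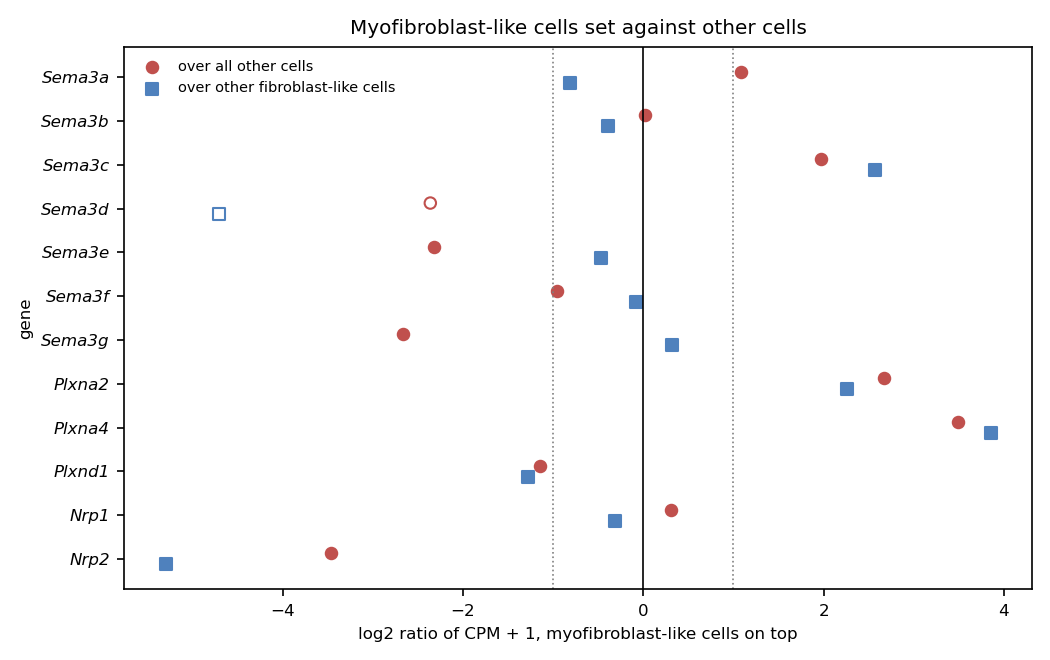
Log2 ratio of CPM + 1 (horizontal axis) of myofibroblast-like cells over all other kept cells (red circles) and over other fibroblast-like cells (blue squares) for the 10 genes and both neuropilins. Dotted lines mark a ratio of 1 and -1, and open symbols a gene at 0 in myofibroblast-like cells. Plxna4 (3.50 and 3.85), Plxna2 (2.67 and 2.26) and Sema3c (1.97 and 2.57) lie right of the upper line in both, and Plxnd1 (-1.14 and -1.28) left of the lower one.

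Bulk PDGFRA+ cells gave a second view of the fibroblasts. In bulk, fewer cells of a type and less RNA per cell cannot be told apart. Per length, Sema3c was the highest ligand with 72.1 TPM (exact Poisson 95% interval 71.3 to 72.9), followed by Sema3f with 64.1 TPM (63.2 to 65.0). Sema3d had 10.5 TPM, Sema3b 9.30 TPM and Sema3a 2.33 TPM, and Sema3g (0.64 TPM) and Sema3e (0.27 TPM) were lowest. Among the plexins Plxnd1 had 61.7 TPM (61.1 to 62.4), Plxna4 13.7 TPM (13.4 to 13.9) and Plxna2 7.85 TPM (7.67 to 8.03). Neighbours in these orders had intervals that did not overlap, but the intervals cover counting error only and 1 sample gives no spread. Plxnb2, a class B plexin and receptor of class 4 semaphorins, had 131 TPM, more than any plexin of the list.

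The bulk sample, in CPM of reads, was set against all kept cells of the single-cell library, which is a different assay. At a log2 ratio of 1 or more stood 7 of the 10 genes, where 26.7% of the 14973 genes in both tables did. They were Sema3d (2.88), Sema3c (2.45), Sema3f (2.39), Plxna4 (2.37), Sema3b (1.90), Plxnd1 (1.77) and Plxna2 (1.60). The low ones were Sema3g, with 1.33 CPM in bulk PDGFRA+ cells and 10.3 CPM in the library (-2.28), and Sema3e, with 0.937 and 6.54 CPM (-1.96), and 21.6% of all genes were as low. The median was 1.83 over the 10 genes and 0.09 over all genes. With TPM, which divides by length, in place of CPM on the bulk side, the 3 plexins changed sign: Plxna2 stood at -0.75, Plxna4 at -0.24 and Plxnd1 at -0.026.

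Set against myofibroblast-like cells alone, the bulk sample was higher by a log2 ratio of 1 or more for 4 of the 10 genes, as were 21.3% of all genes. Sema3d had 35.0 CPM in bulk PDGFRA+ cells and 0 in myofibroblast-like cells. Sema3f had 114 and 10.6 CPM (3.31), Plxnd1 217 and 28.9 CPM (2.86) and Sema3b 15.8 and 3.54 CPM (1.88). In CPM none of the 10 was at -1 or less, where 18.3% of all genes were. Plxna4 was close in CPM, with 88.1 in bulk and 120 in myofibroblast-like cells, as was Sema3c with 181 and 110. Bulk CPM rises with transcript length, unlike CPM of UMIs. In bulk TPM, Plxna4 had 13.7, Plxna2 7.85 and Sema3a 2.33, against 120, 70.8 and 9.45 CPM in myofibroblast-like cells. The lack of low genes and the closeness of Plxna4 therefore hold for CPM only. Sema3d, Sema3f, Plxnd1 and Sema3b were above these cells in TPM too. Adventitial fibroblast markers summed to 4913 CPM in the bulk sample, and Sema3d was seen in adventitial fibroblast-like cells of the library. The 8 pan-endothelial markers summed to 110 CPM in bulk, against 9235 CPM in general capillary-like and 16176 CPM in aerocyte-like cells. In general capillary-like cells Sema3f had 112 CPM. The 8 aerocyte markers summed to 1426 CPM in bulk and the 9 smooth muscle markers to 6768 CPM, and Sema3f had 354 CPM in aerocyte-like and 55.4 CPM in smooth muscle-like cells. The part of other cell types in the bulk levels was not tested.

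**Figure D5:**
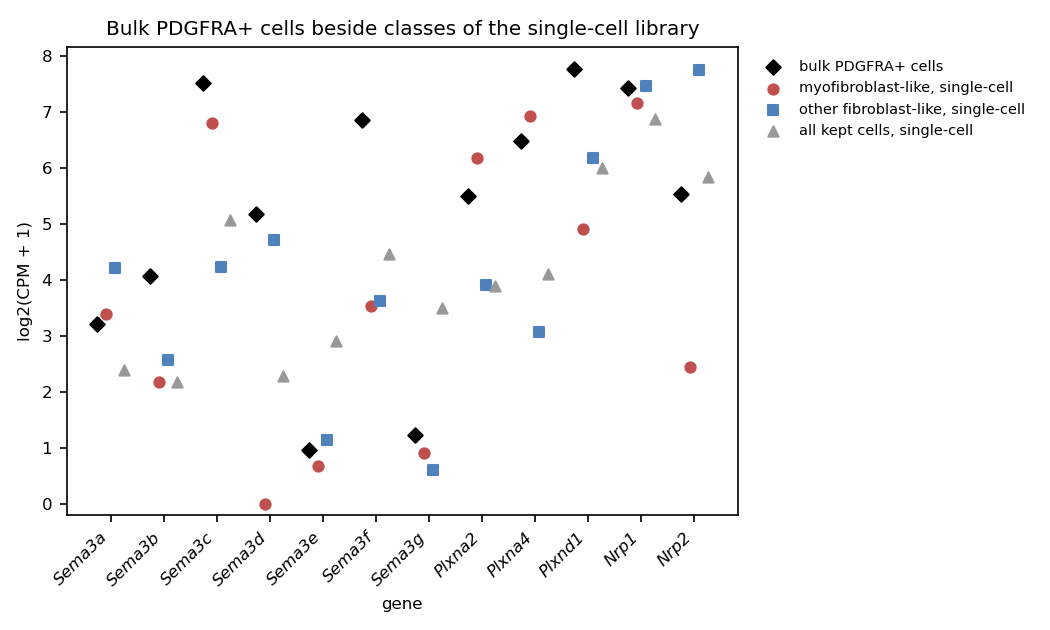
Level as log2(CPM + 1) (vertical axis) of the 10 genes and both neuropilins in bulk PDGFRA+ cells (black diamonds), beside myofibroblast-like cells (red circles), other fibroblast-like cells (blue squares) and all kept cells (grey triangles) of the single-cell library. Each symbol is 1 value with no replicate. Bulk Sema3f (114 CPM) and Plxnd1 (217 CPM) lie above all 3 single-cell values, and Sema3d is at 0 in myofibroblast-like cells only. Bulk CPM rises with transcript length, unlike CPM of UMIs. In TPM, bulk Plxnd1 (61.7) was below other fibroblast-like cells and nearly level with all kept cells, while bulk Sema3f (64.1) stayed above all 3.

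The rest of the pathway was described by lists. Of 6 other plexins, 4 stood at a log2 ratio of 1 or more in myofibroblast-like over all other cells. Another 1 stood at -1 or less, and the list median was 1.13. Among 15398 genes the same comparison placed 16.1% on the high side and 18.5% on the low side, with a median of 0.17. These shares are the background for this list and for those below, and no list was tested against them. Plxna3 had 10.9 CPM in myofibroblast-like cells and 1.49 CPM in the others (2.26), Plxnb1 16.8 and 7.03 CPM (1.15), Plxnc1, the receptor of Sema7a, 70.0 and 31.4 CPM (1.13) and Plxnb2 85.0 and 38.5 CPM (1.12). Plxna1 had 22.1 and 12.6 CPM (0.77), and Plxnb3 was at 0 in myofibroblast-like cells and at 1.54 CPM in the others. Plxnb3, the one at -1 or less, passed that limit only through the added 1 CPM. In myofibroblast-like cells 3 UMIs would be 0.886 CPM, so no direction is given for it.

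The list of 13 other semaphorins had 2 genes on the high side and 7 on the low side of the same limits (median -1.39). Sema6d, a membrane-bound ligand of class A plexins, had 164 CPM in myofibroblast-like cells and 21.8 CPM in the others (2.85), and no named class was higher. Sema4a (4.43 and 44.9 CPM) and Sema4d (4.72 and 35.0 CPM), both known from immune cells, were low, as was Sema7a (0.886 and 8.67 CPM), which was highest in aerocyte-like cells at 172 CPM.

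Among 18 intracellular effectors, 7 were on the high and 5 on the low side (median 0.54). Farp1, which works downstream of class A plexins, had 88.6 CPM in myofibroblast-like cells and 12.4 CPM in the others, and Mical2, which oxidises actin, had 81.5 and 26.4 CPM. The tyrosine kinase gene Fes had 5.31 and 49.5 CPM, and Crmp1 was at 0 in myofibroblast-like cells and at 3.23 CPM in the others. Of 5 processing proteases 1 was on the high and 0 on the low side (median 0.08). It was Pcsk5, a proprotein convertase, with 76.8 CPM in myofibroblast-like cells and 14.5 CPM in the others, while Furin, which cleaves class 3 semaphorins, had 75.9 and 73.1 CPM. Pcsk7 (29.8 and 28.2 CPM) and Adamts1 (78.2 and 71.6 CPM) were also nearly level. Of 5 adhesion and co-receptor genes 4 had enough UMIs, 2 of them high and 2 low (median -0.70). Nrcam, an adhesion molecule of neuropilin complexes, had 210 CPM in myofibroblast-like cells and 20.5 CPM in the others, and Itgb1, the integrin subunit, 1017 and 386 CPM. Kdr, the VEGF receptor, had 3.84 and 83.3 CPM, and L1cam, which partners Nrp1 in axons, 1.18 and 14.2 CPM.

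Genes whose level followed a member most closely over the 24 named classes were found by Pearson correlation of log2(CPM + 1). All classes came from the 1 library, so the values are descriptions. Closest to Sema3f were Npdc1 (0.93), the tight junction gene Tjp1 (0.93) and Caskin2 (0.91). Closest to Sema3b were Arhgap44 (0.91), Plb1 (0.89) and Igfbp2 (0.89), and closest to Sema3e were Shh (0.87), Akap5 (0.87) and Rnf181 (0.86). All 6 of these had their highest level in alveolar type 1-like cells. Sema3g was most like the retinoic acid hydroxylase gene Cyp26b1 (0.89), Msx1 (0.87) and Samd12 (0.87), all highest in arterial-like cells. Sema3d was most like Tenm3 (0.86), Cldn11 (0.85) and Lingo1 (0.83), Sema3c like Kctd2 (0.79), Nkd1 (0.77) and Akr1b8 (0.77), and Sema3a like Zc4h2 (0.78), Gm12184 (0.76) and Slc38a4 (0.76). Plxna2 was most like Cgnl1 (0.88), Afdn (0.86) and Nbea (0.85), Plxna4 like Zfp975 (0.82), Cttnbp2 (0.82) and Nos1ap (0.81), and Plxnd1 like Adcy4 (0.81), Ccny (0.81) and Dync1li1 (0.80). Among pairs of members the highest correlations were between Plxna2 and Plxna4 (0.76) and between Sema3f and Plxna2 (0.75), and the lowest was between Sema3b and Plxnd1 (-0.51).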

How the data were processed

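The deposited single-cell values were handled as a score, since they are whole numbers per gene and cell that look adjusted for depth. The authors' step that made them and the build are not given in the sources used here. The submitters' processing notes name Cell Ranger 5.0 with Seurat 3.2.2 for this library. For the bulk sample they name mm10, Trim Galore, HISAT2, featureCounts and DESeq2 without roles. The authors' deposited bulk columns are an expected count (15.9% of values not whole), TPM, and FPKM, which was not used. Expected counts were used unrounded as CPM, except in Poisson intervals.

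Cells over 10% mitochondrial UMIs (646) were left out, as would have been cells under 500 genes (0). A re-implemented Scrublet score removed 478 of 10660 cells (4.48%) as predicted doublets; it called 54.6% of simulated doublets. For clustering, each cell was scaled to 10000 and logged. Leiden clustering (resolution 1, 30 components, 15 neighbours, 2000 variable genes without the fixed lists) gave 40 clusters. A cluster took the name of its best marker list, with a mean centred log2 score of at least 1 and at least 3 markers, unless its leading genes or another lineage spoke against it; these details were set after the data were seen. Log2 ratios add 1 CPM to both sides. Ratios are counted by size among genes with at least 20 UMIs. Every listed gene, neuropilin and other plexin is named, and in each other list up to 4 genes with the largest absolute log2 ratio and at least 100 UMIs; the 3 most alike genes are given per member. The members and lists were chosen with earlier results of these data known. Scripts used Python 3.11.15, numpy 2.4.6, scipy 1.17.1, pandas 2.3.3, scikit-learn 1.9.0, leidenalg 0.10.2 and igraph 0.11.9, and were tested on simulated data. Alternatives were another cell filter, doublet treatment, resolution, averaging over cells, pseudocount, UMI minimum and bulk unit.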

Additional observations from a re-analysis of the deposited data

How the results depend on the processing

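No paired analysis was possible because each group had 1 sample. The myofibroblast-like class held 554 cells, and 95 with a stricter cell filter, 639 with every deposited cell, 138 with predicted doublets kept, 134 at resolution 0.5 and 287 at resolution 2. The class did not hold the same cells throughout: with the stricter filter 94 of its 95 cells, with doublets kept 132 of its 138 and at resolution 0.5 all 134 were of the cycling cluster, and at resolution 2 it lost 267 cells of the larger cluster to the smooth muscle-like class. Plxna4 over all other cells ranged from a log2 ratio of 2.23 to 3.84 over all alternatives, and was 2.23, 2.52, 2.46 and 2.60 under those 4. The highest class was unchanged for at least 8 of 10 genes; at resolution 0.5 no arterial-like class was found, so Sema3g and Plxnd1 had none to return to. Members highest in a mesenchymal-like class numbered 0 with the stricter filter, every deposited cell or the mean over cells, since Plxna2 was nearly level between classes. Members at -1 or less in myofibroblast-like over other fibroblast-like cells numbered 4 with the stricter filter. In bulk over library, 4 members were at 1 or more with TPM, with Plxna2 at -0.75, Plxna4 at -0.24 and Plxnd1 at -0.026. With bulk CPM against myofibroblast-like cells, 4 were high and 0 low by the same limits. Sema3e stood at 0.28, Sema3g at 0.31, Plxna2 at -0.67 and Plxna4 at -0.44. The cause was not tested. Of the recomputed counts 77 stayed within 1.5 times. Of the values for single genes 232 log2 ratios kept their sign and stayed on the same side of a size of 1, 9 others stayed under it but changed sign, such as Sema3a over other fibroblast-like cells (0.14 with the stricter filter), 42 shares stayed within their interval, 9 ratios passed the limit of 1 only under an alternative, 3 no longer passed it, and 6 shares moved. Small classes (24 to 48 cells for ciliated-like, lymphatic-like, alveolar type 1-like, mesothelial-like and arterial-like) limit the precision of their shares.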
